A study of Homo sapiens with 3 samples.

Results

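The E2F transcription factors and their DP partners form a family of 10 genes in this account: E2F1 to E2F8, TFDP1 and TFDP2. The genes were chosen by name, and a peak was counted for a gene when its summit lay inside the gene or within 5 kb of it on GRCh38. Of 19974 protein-coding genes with a position on chromosomes 1 to 22 and X, 10 are members. Peaks came from ChIP-seq with the anti-FOXM1 antibody G-5 in Huh7, an established human hepatocellular carcinoma line, grown without treatment. There were 2 ChIP libraries, replicates 2 and 3 of the same condition, beside 1 input library made with no antibody and not analysed here. The labels do not tie the replicates to separate cultures, so their spread may be only technical. No library with another antibody or from FOXM1-deficient cells was used here, and the antibody's specificity was not tested.

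E2F proteins bind promoters of genes for DNA replication and cell cycle entry, mostly as dimers with a DP protein. In quiescent and early G1 cells pocket proteins of the RB family hold them in check, and phosphorylation by cyclin-dependent kinases frees them. E2F1, E2F2 and E2F3 are known as activators, E2F4 and E2F5 as repressors that work with pocket proteins, E2F6 as a repressor independent of them, and E2F7 and E2F8 as atypical repressors that need no DP partner. FOXM1 is a forkhead factor that acts later in the cycle, on genes of the G2 and M phases, and reaches many of them through the MuvB complex.

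Overlapping peaks of both libraries were called at 6 of the 10 genes: E2F1, E2F3, E2F5, E2F7, E2F8 and TFDP1. Over all protein-coding genes the share was 25.5% by the same rule. E2F2 and E2F4 had a peak in replicate 3 alone, TFDP2 had one in replicate 2 alone, and E2F6 had none. Taken by itself, replicate 2 called 7 members, against 33.3% of all protein-coding genes, and replicate 3 called 8, against 41.3%. In at least 1 library 9 members had a peak, against 46.2%. Longer genes were called more often under this rule: in 4 equal classes of genes by length, the share with overlapping peaks was 19.5%, 24.5%, 27.1% and 30.9%, shortest to longest. The members lay in all 4 classes, from E2F4 (6764 bp) to TFDP2 (205117 bp). The members were picked with earlier results of these data known, so the count of 6 carries no test. It fell to 3 when summits had to lie within 100 bp of each other (E2F1, E2F5 and E2F8), against 15.7% of all genes, and to 1, E2F1, among peaks with −log10 q of at least 5, against 6.36%. That last call rests on peaks at the start of the neighbouring gene NECAB3.

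Peak values are the authors' own: a fold enrichment over the local background at the summit, and a −log10 q, for which a value of about 1.3 stands for the listing threshold of 0.05. Replicate 2 listed 8271 peaks and replicate 3 listed 11502. Median fold was 3.76 in replicate 2 and 3.78 in replicate 3, on medians of 26 and 24.5 fragments at the summit. These counts were rebuilt from fold and p, and the intervals given on them cover counting error only. Local backgrounds in the text are on a scale of their own, reached from the counts by a factor of 0.848 (replicate 2) or 0.869 (replicate 3). A count over such a background therefore does not give the fold directly. The members held 10 peaks in each library. Their folds ran from 2.93 to 5.78 in replicate 2 and from 2.92 to 4.59 in replicate 3, and 5 of the 10 lay above the library's median in each, so these were peaks of ordinary strength. Peaks under the listing threshold are not in the files, and a gene without a peak is only one at which the threshold was not passed.

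**Figure D1:**
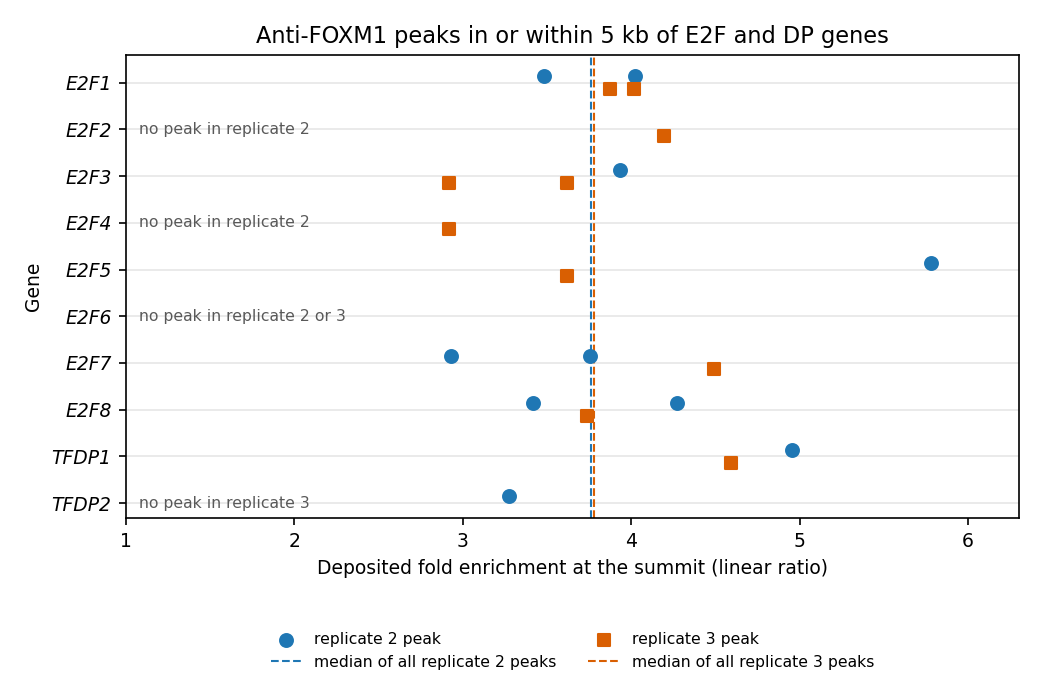
Deposited fold enrichment (linear ratio, x axis) of every peak in or within 5 kb of the 10 genes (y axis), as blue circles for replicate 2 and orange squares for replicate 3, with dashed lines at the median of all peaks of each library. Most points lie near the medians of 3.76 and 3.78, and the E2F5 peak of replicate 2, at 5.78, stands farthest to the right.

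E2F1 was called in both libraries at its start, with nearly the same summit. Fold there was 3.48 in replicate 2 and 4.02 in replicate 3, with −log10 q of 4.72 and 6.91. The summits, at positions 33686228 and 33686216, lay 157 and 169 bp downstream of the annotated start and 12 bp apart. The peaks spanned chr20:33685958-33686524 in replicate 2 and chr20:33685937-33686518 in replicate 3, on 35 fragments (exact 95% Poisson interval 24.4 to 48.7) and 37 fragments (26.1 to 51.0). These intervals overlap. The replicate 3 count is the only one of the family's 20 for which a second solution also met the tolerance of the rebuilding. The local background was 7.81 and 7.25 fragments, above the median of 5.00 over all peaks in each library, and its fold was near the library medians although its counts were among the higher ones of the family. Over all peaks of chromosome 20 the median background was 6.55 in replicate 2 and 6.34 in replicate 3, and 44.9% of the chromosome's protein-coding genes carried overlapping peaks, against 25.5% of all genes; the part of this in the E2F1 call was not tested.

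A second pair of peaks counted for E2F1 lay past its other end, 1026 bp outside the gene in replicate 2 and 1107 bp in replicate 3. Fold was 4.02 and 3.88, with −log10 q of 9.27 and 6.55 on 51 and 39 fragments. These summits lay 23 and 58 bp from an annotated start of NECAB3, the neighbouring gene, and inside it. In replicate 2 this was the peak of the family with most fragments. Without this pair E2F1 would still count through the peaks at its own start. It passed the stricter −log10 q of 5 through this pair alone, since its start peak had 4.72 in replicate 2.

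The promoter window of E2F1, from 250 bases before to 50 after the start, is printed because the peaks of both libraries cover part of it. It is RefSeq sequence (GRCh38.p14, chr20:33686336-33686635, minus strand), with capitals on matches to an E2F site (TTTCGCGC or TTTGGCGC) or its inner letters (TTCGCG or TTGGCG), and to CCAAT, on either strand.
E2F1: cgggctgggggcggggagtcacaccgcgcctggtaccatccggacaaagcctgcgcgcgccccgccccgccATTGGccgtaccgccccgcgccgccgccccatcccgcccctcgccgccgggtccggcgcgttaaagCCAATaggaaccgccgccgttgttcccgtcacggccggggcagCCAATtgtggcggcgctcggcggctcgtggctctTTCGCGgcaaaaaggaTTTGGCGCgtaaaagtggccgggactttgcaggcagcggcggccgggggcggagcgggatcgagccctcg
One full E2F site in these spellings, TTTGGCGC, occupied positions -20 to -13 from the start, and a TTCGCG core occupied -36 to -31. A looser E2F form, TTGCCGC, overlapped that core at -33 to -27 on the opposite strand and is not in capitals. CCAAT occurred 3 times, at -179 to -175 on the opposite strand and at -113 to -109 and -70 to -66 on the printed strand. The summits lay downstream of all of these, at +157 and +169 bp, and outside the printed window.

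E2F2, another activator gene, was called in replicate 3 alone. Its peak (chr1:23530703-23530824) had fold 4.20, −log10 q of 4.11 and 23 fragments (interval 14.6 to 34.5), with the summit 473 bp downstream of the start. The fold was above the replicate 3 median of 3.78. The lncRNA gene LOC101928163 lay within 5 kb of this summit. In replicate 2 the nearest summit lay 23735 bp outside the gene. A peak missing from a list does not show that the libraries differ there.

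E2F3 encodes an activator with a pair of annotated starts, known to give the E2F3a and E2F3b forms, and the called peaks of both libraries lay at the downstream start. In replicate 2 the summit was 4 bp upstream of that start (chr6:20403503-20403866), with fold 3.93, −log10 q of 3.49 and 22 fragments (interval 13.8 to 33.3). In replicate 3 it was 228 bp downstream (chr6:20403670-20403893), with fold 3.62, −log10 q of 2.29 and 17 fragments (9.90 to 27.2). The summits were 232 bp apart, although the peaks overlapped by 197 bp. Replicate 3 had a further weak peak 615 bp downstream of the upstream start, with fold 2.92 and −log10 q of 1.64. That summit lay inside both E2F3 and LOC124901482, a gene record on the opposite strand, and 278 bp from the start of that record.

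Both E2F3 windows are RefSeq sequence of GRCh38.p14, plus strand. The downstream one (chr6:20403364-20403663) is shown whole because the replicate 2 summit falls in it, and none of its letters are in capitals because it held no match to any motif searched. G and C made up 77.3% of it, more than in 92.4% of all protein-coding promoter windows.
E2F3, downstream start: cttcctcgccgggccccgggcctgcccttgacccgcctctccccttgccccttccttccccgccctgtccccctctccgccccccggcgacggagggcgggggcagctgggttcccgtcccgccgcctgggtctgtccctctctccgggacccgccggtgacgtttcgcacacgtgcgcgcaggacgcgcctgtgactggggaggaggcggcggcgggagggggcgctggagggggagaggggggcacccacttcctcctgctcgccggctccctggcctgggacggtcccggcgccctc
For the upstream start the 60 bases around its E2F cores are set beside those of E2F1 and E2F2, with the cores in capitals, because all 3 activator genes share the arrangement.
E2F1 (chr20:33686372-33686431, minus strand): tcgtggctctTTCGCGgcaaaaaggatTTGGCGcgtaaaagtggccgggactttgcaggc
E2F2 (chr1:23531240-23531299, minus strand): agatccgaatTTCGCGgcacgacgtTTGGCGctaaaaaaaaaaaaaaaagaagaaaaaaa
E2F3, upstream start (chr6:20401831-20401890): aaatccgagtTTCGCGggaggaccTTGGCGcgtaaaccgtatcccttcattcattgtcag
TTCGCG preceded TTGGCG on the printed strand in each, with 17 bases from the first letter of one core to the first of the next in E2F1, 15 in E2F2 and 14 in E2F3. Among 22132 promoter windows of protein-coding genes, 19 (0.0858%) held this order with 6 to 20 bases between the first letters, a search made after the sequences were seen. Of the 19 windows 2 were covered by overlapping peaks of both libraries, near the share of 11.6% over all windows. At E2F2 and at the upstream E2F3 start no peak of either library reached the printed window.

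E2F4 was called weakly and in replicate 3 alone. Its peak (chr16:67192104-67192291) had its summit 19 bp downstream of the start, with fold 2.92, −log10 q of 1.64 and 19 fragments (interval 11.4 to 29.7). By −log10 q it ranked 11005 of 11502 peaks, and its values were equal to those of the weak E2F3 peak, which also rested on 19 fragments over a background of 5.00. The nearest replicate 2 summit, with fold 4.89, lay 7104 bp outside the gene and inside EXOC3L1, the closest peak left out by the 5 kb limit. It overlapped a replicate 3 peak with fold 3.50, so a limit of 10 kb would have added E2F4, for 7 genes, while the share of all protein-coding genes would have been 27.9%. The E2F1 pair at 1026 and 1107 bp was the farthest included.

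E2F5 had the strongest single peak of the family. Fold was 5.78 in replicate 2 and 3.62 in replicate 3, with −log10 q of 11.0 and 4.29. By fold, the replicate 2 peak ranked 106 of 8271, in the top 1.28%, while the replicate 3 peak ranked 6770 of 11502. The summits were 25 bp apart, at 144 and 119 bp inside the lower-coordinate end of the gene (chr8:85177197-85177435 in replicate 2 and chr8:85177091-85177543 in replicate 3). The lncRNA gene E2F5-DT lies next to this end. Fragment counts were 40 (interval 28.6 to 54.5) in replicate 2 and 28 (18.6 to 40.5) in replicate 3, over backgrounds of 5.04 and 6 fragments. These intervals overlap.

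E2F6, the repressor that works with Polycomb proteins rather than pocket proteins, was the only member with no peak. The nearest summits lay 16604 bp outside the gene in replicate 2 and 16239 bp in replicate 3. The nearest overlapping pair lay beside the lower-coordinate end of GREB1, known as an estrogen-responsive gene, with fold 5.71 and 6.19. That is a higher fold than any family peak in replicate 3 and all but the E2F5 peak in replicate 2. The E2F6 promoter window held no full E2F site, forkhead motif, CCAAT or TTTGAA. It held a looser 7-base E2F form, TTCCCGC, at 15 to 21 on the opposite strand. Forms of this kind occurred in 16.1% of all windows.

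Both atypical genes, E2F7 and E2F8, were called in both libraries, and at each the single peak of replicate 3 overlapped a pair of separate peaks in replicate 2. At E2F7, which represses E2F targets late in the cycle, replicate 3 had fold 4.49 and −log10 q of 6.03 on 28 fragments (interval 18.6 to 40.5), with the summit 91 bp upstream of the start (chr12:77065460-77065897). Replicate 2 had a peak upstream (chr12:77065698-77065979; fold 3.75, −log10 q of 3.93, 25 fragments) with its summit 235 bp before the start. Its other peak (chr12:77065409-77065583; fold 2.93, −log10 q of 1.98, 23 fragments) had its summit 160 bp after the start. The replicate 3 summit fell between the replicate 2 summits.

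The E2F7 window (RefSeq, GRCh38.p14, chr12:77065520-77065819, minus strand) is shown because both libraries have peaks over it; capitals mark CCAAT and the TTGGCG core on either strand.
E2F7: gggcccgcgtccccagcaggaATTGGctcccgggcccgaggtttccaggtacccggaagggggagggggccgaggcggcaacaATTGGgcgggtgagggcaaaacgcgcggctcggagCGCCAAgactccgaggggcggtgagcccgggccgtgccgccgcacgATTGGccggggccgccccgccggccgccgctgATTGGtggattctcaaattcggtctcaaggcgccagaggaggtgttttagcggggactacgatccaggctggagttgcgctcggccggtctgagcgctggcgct
CCAAT occurred 4 times, all on the opposite strand, at -229 to -225, -167 to -163, -86 to -82 and -54 to -50. A TTGGCG core lay at -132 to -127 on the opposite strand, and no full E2F site was present.

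At E2F8, which acts with E2F7, all summits lay inside the gene within 511 bp of its higher-coordinate end. Replicate 2 had fold 4.27 at 511 bp (chr11:19241086-19241211, −log10 q of 4.57, 24 fragments) and 3.42 at 277 bp (chr11:19241374-19241573, −log10 q of 2.86, 23 fragments). Replicate 3 had fold 3.74 at 242 bp (chr11:19241091-19241500, −log10 q of 3.39, 21 fragments with an interval of 13.0 to 32.1). The lncRNA gene CSRP3-AS1 overlaps E2F8. The weaker replicate 2 peak and the replicate 3 peak had summits 35 bp apart.

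TFDP1, which encodes the main DP partner, was the member with the highest lower fold of both libraries. Fold was 4.95 in replicate 2 and 4.59 in replicate 3, in the top 7.71% and 15.4% of peaks, with −log10 q of 5.04 and 4.46. The summits lay 385 and 265 bp downstream of the start (chr13:113585072-113585220 and chr13:113584560-113585255). Fragment counts were ordinary, 22 (interval 13.8 to 33.3) and 20 (12.2 to 30.9). The backgrounds were the lowest of the family, 2.97 and 3 fragments, or 3.50 and 3.45 on the ChIP scale. With fold of at least 4 in both libraries TFDP1 alone would have been counted, against 8.33% of all genes. TFDP2, the related partner gene, had 1 peak in replicate 2 (chr3:142149143-142149412; fold 3.28, −log10 q of 2.41, 22 fragments), 267 bp downstream of its first start. The pseudogene RNU6-425P lay within 5 kb of that summit. The nearest replicate 3 summit was 67427 bp outside TFDP2.

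The windows at the TFDP1 start (chr13:113584503-113584802, plus strand) and the first TFDP2 start (chr3:142149495-142149794, minus strand) are RefSeq sequence of GRCh38.p14. They are shown because the TFDP1 window holds a full E2F site and the TFDP2 window the forkhead motif TGTTTAC, both in capitals with CCAAT and TTGGCG.
TFDP1: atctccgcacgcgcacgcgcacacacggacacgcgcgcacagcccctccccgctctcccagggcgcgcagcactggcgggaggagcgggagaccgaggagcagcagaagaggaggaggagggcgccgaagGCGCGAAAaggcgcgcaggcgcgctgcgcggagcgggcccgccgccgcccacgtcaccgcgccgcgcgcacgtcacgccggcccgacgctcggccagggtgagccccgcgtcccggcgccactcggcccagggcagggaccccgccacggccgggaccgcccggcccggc
TFDP2: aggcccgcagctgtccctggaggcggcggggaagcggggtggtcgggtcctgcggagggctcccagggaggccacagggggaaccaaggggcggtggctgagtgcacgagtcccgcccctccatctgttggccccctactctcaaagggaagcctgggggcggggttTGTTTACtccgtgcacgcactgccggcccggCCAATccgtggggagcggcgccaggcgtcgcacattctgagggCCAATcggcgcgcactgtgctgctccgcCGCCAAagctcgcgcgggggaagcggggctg
In TFDP1 the E2F site TTTCGCGC lay on the opposite strand at -120 to -113, and the replicate 3 peak covered part of the window while the replicate 2 peak did not. In TFDP2 TGTTTAC lay at -83 to -77, CCAAT at -52 to -48 and -9 to -5, and the TTGGCG core on the opposite strand at 20 to 25. No peak of either library reached this TFDP2 window.

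**Figure D2:**
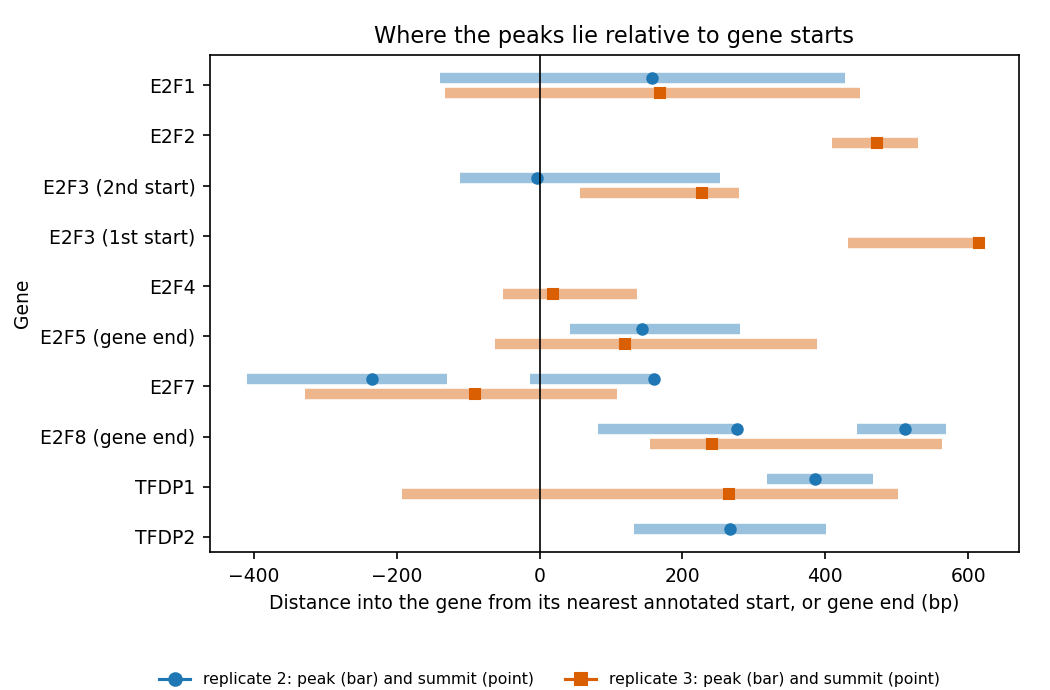
Peaks as bars and summits as points (blue circles, replicate 2; orange squares, replicate 3) by distance in bp into the gene from the nearest annotated start, or from the nearer gene end for E2F5 and E2F8. The E2F1 pair at the NECAB3 start is left out; summits run from 235 bp upstream (E2F7) to 615 bp downstream (E2F3, upstream start), most of them downstream.

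Family peaks clustered at gene starts. Of the 20 peaks, 18 had their summit within 615 bp of a start of the member itself or, for E2F5 and E2F8, of the nearer gene end; the other 2 were the pair at NECAB3. None lay deep inside a gene, although TFDP2 and E2F3 are long. Of the 15 peaks at members with an annotated start, 13 were within 1 kb of such a start. The share over all peaks, on chromosomes with promoter entries, counted an annotated start of any gene within 1 kb. It was 66.4% in replicate 2 and 63.8% in replicate 3. By that measure the NECAB3 pair, 23 and 58 bp from a start, would count as well. Promoter entries covered 15812 of 19974 protein-coding genes, so these shares may be too low. Most peaks of these lists thus lay near a start. Of the 20 summits 16 were inside the member gene. The matching share over all peaks is not given here, so this count only describes where the member summits lay.

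**Figure D3:**
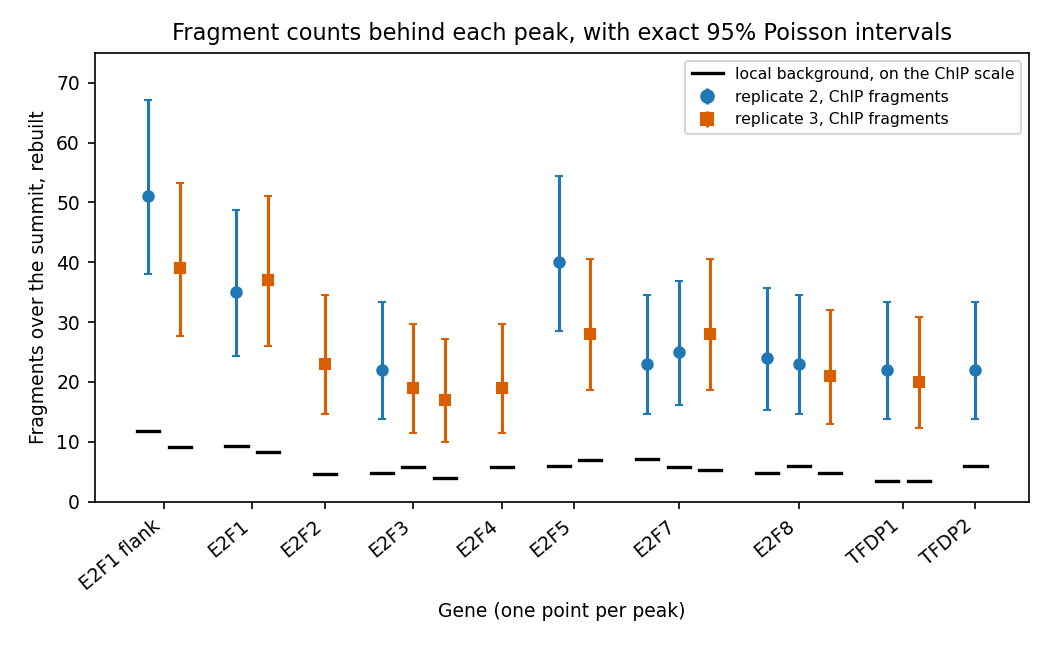
Rebuilt fragment counts at each summit (y axis, fragments) by gene, with exact 95% Poisson intervals, for replicate 2 (blue circles) and replicate 3 (orange squares); black bars give the local background on the ChIP scale. Counts run from 17 at E2F3 to 51 at the peak flanking E2F1, over backgrounds of 3.45 to 11.8.

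Where member peaks overlapped, the libraries gave similar fold at most pairs, with E2F5 and 1 pair of E2F7 as the exceptions. Peaks without a partner in the other library are not in this comparison. Over 6051 overlapping pairs, the log2 ratio of replicate 3 to replicate 2 fold had a median of 0.03 and an SD of 0.33. At the 9 pairs of the family it ran from -0.68 at E2F5, larger in size than at 95.3% of all pairs, to 0.62 at the weaker replicate 2 peak of E2F7. The summits of that E2F7 pair were 251 bp apart, and the other E2F7 pair had a ratio of 0.26. Of the 9 pairs, 3 exceeded the median size over all pairs, 0.21. The ratio was -0.11 at TFDP1, -0.12 at E2F3 and 0.21 at the E2F1 start. Summits of a pair were a median of 101 bp apart over all pairs, and 4 of the 9 family pairs were within 100 bp, against 49.9% of all pairs. At E2F7 and E2F8 both pairs share the same replicate 3 peak, so the 9 pairs are not independent.

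**Figure D4:**
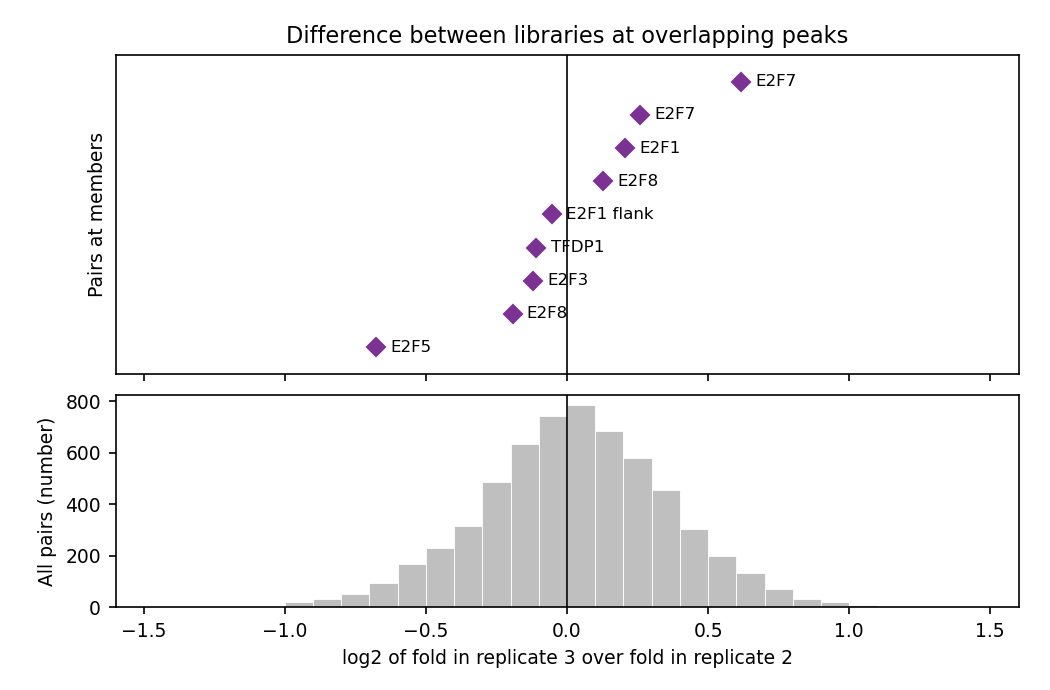
Log2 ratio of fold in replicate 3 over replicate 2 for the 9 overlapping pairs at members (top, purple diamonds, one row per pair) and for all 6051 pairs (bottom, number per bin of 0.1). Most member pairs sit within 1 SD (0.33) of 0; E2F5 at -0.68 and one E2F7 pair at 0.62 lie outside.

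Promoter sequence was available for 8 of the 10 genes in 11 windows, with none for E2F5 and E2F8. The full set of 22132 windows covers 15812 of the 19974 protein-coding genes, and shares of all windows refer to that set. Overlapping peaks of both libraries covered part of 2 of the 11 windows, those of E2F1 and E2F7, against 11.6% of all windows. Replicate 2 covered 3 of the windows, against 15.9% of all, and replicate 3 covered 4, against 21%. Replicate 2 alone reached the downstream E2F3 window, and replicate 3 alone reached those of E2F4 and TFDP1. Median G and C content was 63.7% in the member windows, against 62.3% in all windows. It was 74.3% in windows covered in both libraries and 58.7% in windows with no peak. It was 73.3% in the E2F1 window and 70.7% in the E2F7 window.

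A full E2F site was present in 3 of the 11 member windows (E2F1, E2F2 and TFDP1), while 333 of 22132 windows and 1.84% of those covered in both libraries held one. The forkhead motif TGTTTAC was present in 2 of the 11, both of TFDP2, whereas 2.85% of all windows and 1.72% of those covered in both libraries held it. E2F1, E2F3, E2F7 and TFDP1, the members called in both libraries that had a window, held neither TGTTTAC nor a looser form (GTAAACA or ATAAACA or GTAAATA or ATAAATA, on either strand). The looser form was itself uncommon, in 10.6% of all windows and 3.71% of those covered in both libraries. TTTGAA, the letters of the cell cycle homology region through which MuvB complexes contact DNA, occurred in 3 of the 11, of E2F3 (upstream start, -65 to -60) and TFDP2 (both downstream starts), against 12.4% of all windows and 4.49% of covered ones. CCAAT occurred in 4 of the 11 member windows (1 each of E2F1, E2F3, E2F7 and TFDP2), near the share of 34.6% over all windows, and in 26.0% of covered ones. A match is only a run of letters, and these windows do not reach the summits of E2F1, E2F2, TFDP1 or TFDP2, the replicate 3 summits of E2F3 or the downstream replicate 2 summit of E2F7.

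Other genes of the RB and E2F pathway were called in shares from 22.2% (partners of E2F6) to 66.7% (pocket proteins), beside 25.5% of all protein-coding genes, and these counts carry no test. Of the 3 pocket protein genes 2 had overlapping peaks. RB1 had fold 3.05 in replicate 2 and 4.19 in replicate 3, with summits 6 and 85 bp from its lower-coordinate end. RBL1 had fold 3.86 and 4.09, with summits 4506 and 4705 bp inside its lower-coordinate end. These summits lay 95142 and 94943 bp from its nearest annotated start. RBL1 is on chromosome 20, where 44.9% of protein-coding genes carried overlapping peaks. Of 15 G1 cyclin, kinase and inhibitor genes 7 were called. The strongest by the lower fold were CDKN2C, an inhibitor of CDK4 and CDK6 (4.26 and 4.05), CCND1, which encodes cyclin D1 (4.02 and 3.97), CCNE1, which encodes cyclin E1 (3.92 and 5.47), and CDKN1B, which encodes p27 (3.88 and 4.74). The CDKN2C summits lay 3347 and 3562 bp outside the gene and those of CDKN1B 2597 and 2602 bp outside, so they count only through the 5 kb window.

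Of 7 genes for MuvB subunits and MYB partners 4 were called: LIN54, the DNA-binding subunit (4.10 and 5.58), MYBL1 (3.70 and 4.17), LIN9 (3.28 and 3.75) and MYBL2, which encodes B-MYB (3.13 and 3.69). MYBL2 summits lay 2 and 118 bp from a gene end, and MYBL2, like RBL1, is on chromosome 20. Of 9 genes for E2F6 complex partners 2 were called, YAF2 (4.07 and 4.26) and PCGF6 (4.20 and 3.68), and 4 had no peak in either library. Of 39 E2F target genes of G1/S and replication 13 were called (33.3%) and 14 had no peak in either library. Beside these counts without a peak, 46.2% of all protein-coding genes had a peak in at least 1 library. The strongest were UHRF1, an epigenetic regulator (4.37 and 4.36), POLE, a replicative polymerase (4.85 and 4.28), CCNA2, which encodes cyclin A2 (5.40 and 4.15), and APAF1, which acts in apoptosis (4.10 and 4.15). CCNA2 had the highest −log10 q of these in replicate 2, 9.68, with summits 29 and 16 bp outside the gene.

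**Figure D5:**
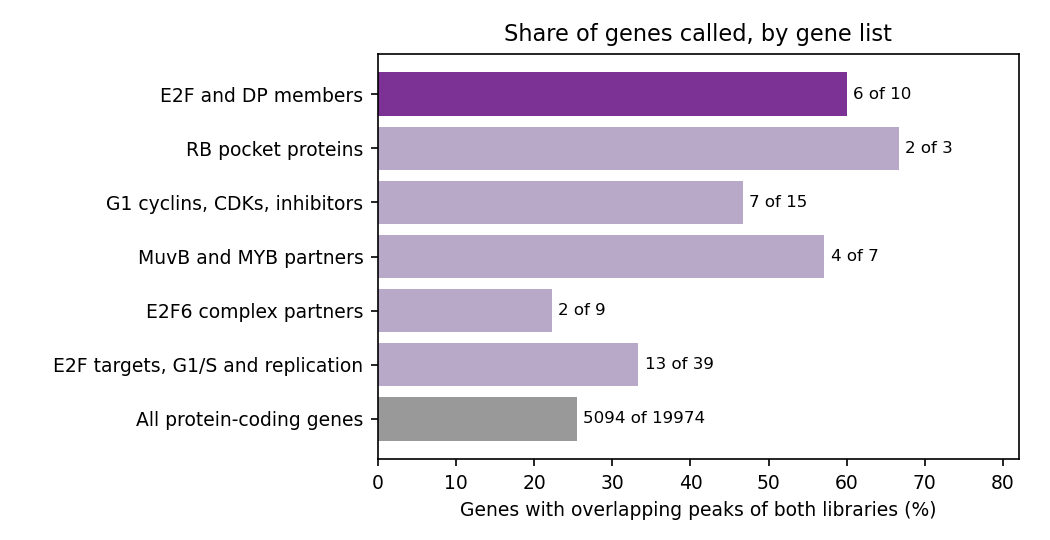
Share of genes (x axis, percent) with overlapping peaks of both libraries in or within 5 kb, for the E2F and DP genes (dark purple), the other pathway lists (light purple) and all protein-coding genes (grey), with counts beside the bars. The family stands at 6 of 10 and all protein-coding genes at 25.5%; the pocket protein bar rests on 3 genes.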

How the data were processed

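The submitters' processing notes name GRCh38, CASAVA 1.4, MACS2 2.2.7.1 and BWA, with no role or order. Filters and the control library are not given in the sources used here. For each ChIP library the authors deposited a peak list of summits with a fold enrichment (a linear ratio), a −log10 p and a −log10 q. The deposited score column repeats the −log10 q on a coarser scale and was left aside. Coordinates are 1-based. Genes came from a RefSeq table (GRCh38.p14).

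A gene was called where peaks of both libraries overlapped by at least 1 bp and both summits lay inside it or within 5 kb. Fragment counts were rebuilt by solving for the count and background that give the deposited fold, with a pseudocount of 1 on both, and the deposited p as a Poisson upper tail. For every peak (100%) the solution gave the deposited −log10 p to within 0.001, and 100% of 300 peaks simulated per library returned their count. The simulated peaks followed the same formula, so their return checks the solving only. With −log10 p shuffled among 300 peaks of each library, 1% had a solution. Where several counts met this tolerance, the closest was taken. Counts were multiplied by 0.848 (replicate 2) or 0.869 (replicate 3) to reach the scale of the background. Motifs were searched in RefSeq windows of 300 bases. The members, lists and alternatives were chosen with earlier results of these data known. Every member and its neighbours were named, with up to 4 called genes of each list by the lower fold of both libraries. With 2 libraries of 1 condition no test between groups was possible. Python 3.11.15, numpy 2.4.6, pandas 2.3.3, SciPy 1.17.1 and matplotlib 3.10.9 were used.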

Additional observations from a re-analysis of the deposited data

How the results depend on the processing

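The count of 6 members with overlapping peaks was 5 with summits within 1 kb of a gene end (18.9% of all protein-coding genes), 6 with a window of 1 kb (23.1%) or −log10 q of at least 2 (23.3%), and 7 with a window of 10 kb (27.9%). It was 3 with summits within 100 bp or reciprocal overlap of at least 50%, and 1 with −log10 q of at least 5 (E2F1, through the pair at the NECAB3 start) or fold of at least 4 (TFDP1). The share of all protein-coding genes, 25.5%, was 15.7% and 16.9% under those overlap rules, 6.36% and 8.33% under those thresholds, and 12.3% over all 59098 gene records. With a library left out, 7 to 8 members and 33.3% to 41.3% of all genes had a peak. A looser E2F motif was present as 6-base cores in windows of 6 members: E2F1, E2F2, E2F3, E2F7, TFDP1 and TFDP2 (17.3% of all windows). As 7-base forms it was present in windows of 6 members, with E2F6 in place of TFDP2 (16.1% of all windows). The full site, spelled TTTCGCGC or TTTGGCGC only, was present in windows of 3 members (333 of 22132 windows). Looser letters match more often by construction. The other motif alternatives kept the count of members within 1.5 times, and no other spelling of TTTGAA was run. At the 9 pairs of peaks, each library's fold stayed within 1 SD of their mean, as it must with 2 values. No paired analysis was possible because there was only 1 group of ChIP libraries. Library depth is not given in the sources used here, and what it limits was not tested.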

Other observations

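Beyond the 5 kb limit both sides of E2F1 held further peaks of both libraries. Inside NECAB3, and also over ACTL10, overlapping peaks had summits 7910 bp outside E2F1 in replicate 2 and 7864 bp in replicate 3, with fold 4.44 and 3.12 on 43 and 42 fragments. A further pair lay 11739 and 11662 bp outside, with fold 3.91 and 2.70. On the opposite side, near PXMP4, a pair lay 15269 and 15232 bp outside with fold 4.36 and 3.83. The backgrounds at the ACTL10 pair were 7.43 and 11.0 fragments, and fold was lower in replicate 3 while the fragment counts were nearly equal.

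Replicate 3 had 1 peak where replicate 2 had 2 at both atypical genes, and its peaks were wider at several members: 696 bp against 149 bp at TFDP1, 453 bp against 239 bp at E2F5 and 410 bp against 126 and 200 bp at E2F8. At E2F3 the order was turned, with 224 bp in replicate 3 and 364 bp in replicate 2 at the downstream start. Median peak width over all peaks was 229 bp in replicate 3 and 227 bp in replicate 2.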
